A study of Mus musculus with 6 samples.

Results

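The cytosolic ribosomal protein genes encode the protein part of the ribosome outside mitochondria, the particle that translates mRNA. They were taken by symbol, as Rpl or Rps followed by a number plus Rplp0, Rplp1, Rplp2 and Rpsa. Symbols of pseudogenes were left out, and a gene was kept when it reached at least 20 counts per 1000000 (CPM) in at least 1 of 6 libraries. Of 32285 genes listed, 83 had such a symbol and 80 were kept, 32 of the small subunit and 48 of the large subunit. Just inside the threshold lay Rpl7l1, Rpl22l1 and Rpl36a, with highest levels of 79.4, 226 and 410 CPM, and just outside lay Rpl3l, Rpl39l and Rpl10l, with 5.65, 0.125 and 0.100 CPM. A gap therefore separated the genes kept from the 3 left out.

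The libraries were 10x Visium sections of frozen mouse kidney, in which each barcoded spot collects mRNA from the several cells above it. All Alport syndrome (AS) mice carried B6.Cg-Col4a5tm1Yseg, an allele of a type IV collagen gene of basement membranes, and there was 1 library in each group. The groups were AS at 5 months with early hEV treatment, AS at 5 months with late hEV treatment, untreated AS at 5 months (5m AS), untreated AS at 2 months (2m AS), a mixed library that held a wild-type (B6C57) female and a heterozygous female together, and wild type (WT, B6C57). The sources used here do not give the age of WT and of the mixed library, the dose, or what early and late stand for.

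Ribosomal proteins are needed in fixed proportions, since ribosomes are built from largely the same set. Their mRNAs are among the most abundant of any cell and typically begin with a run of pyrimidines, the 5′ terminal oligopyrimidine tract, through which the mTOR pathway controls their translation. In the kidney, ribosome production is known to increase when the organ grows, as after loss of the other kidney. The mRNA levels given here say nothing of how many ribosomes there were or how fast they worked.

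The start of transcription was looked at first, because the pyrimidine tract is the sequence feature that marks these genes. RefSeq windows of 300 bases on GRCm38.p6, from 250 before to 50 after the annotated start, were matched for 60 of the 80 genes. For these the window nearest the GENCODE gene start was taken, and for other genes the first listed window. The shares below thus compare windows chosen in unlike ways. Some RefSeq starts lay far from the GENCODE gene start, as for Rps24 with 3553 bases. A run of at least 8 pyrimidines within 30 bases of the start was found in 31 of the 60, or 51.7%, against 22.7% of 26962 other genes and 21.8% of 5906 other genes with at least 20 CPM. The letters CCGGAAG, on either strand, were in 24 windows, or 40%, against 9.05% of the other genes and 19.8% of those with at least 20 CPM. CTCTTTCC on the given strand, which lies within a pyrimidine run by its own letters, was in 7 windows, or 11.7%, against 1.42% and 1.37%. AAGATGGC on either strand was in 5 windows, or 8.33%, against 2.87% and 5.32%. TATAAA within 50 bases before the start was in 1 window, against 2.89% and 1.76% of those of other genes. A match is a description of letters and not evidence that a factor binds there.

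The following windows, from 40 bases before to 20 after the RefSeq start, belong to genes at the extremes of the comparisons below and to the paralogs Rps27 and Rps27l. Capitals mark runs of at least 8 pyrimidines, and each line reads 5′ to 3′ on the strand of the gene. The windows lie at chr7:4792925-4792984 (+) for Rpl28, chr2:39005112-39005171 (-) for Rpl35, chr11:114668540-114668599 (+) for Rpl38, chr1:39367811-39367870 (+) for Rpl31, chr3:90213629-90213688 (-) for Rps27, chr9:66946046-66946105 (+) for Rps27l, chrX:74270776-74270835 (+) for Rpl10, chr5:65391412-65391471 (-) for Rpl9 and chr10:128549149-128549208 (-) for Rpl41.
Rpl28: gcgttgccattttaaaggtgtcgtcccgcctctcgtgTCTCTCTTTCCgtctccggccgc
Rpl35: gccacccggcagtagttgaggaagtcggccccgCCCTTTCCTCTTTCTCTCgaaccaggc
Rpl38: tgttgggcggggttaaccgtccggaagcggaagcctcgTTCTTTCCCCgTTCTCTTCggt
Rpl31: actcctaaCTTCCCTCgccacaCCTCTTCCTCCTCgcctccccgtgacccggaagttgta
Rps27: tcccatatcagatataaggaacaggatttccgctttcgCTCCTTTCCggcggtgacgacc
Rps27l: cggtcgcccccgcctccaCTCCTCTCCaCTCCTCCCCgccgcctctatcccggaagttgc
Rpl10: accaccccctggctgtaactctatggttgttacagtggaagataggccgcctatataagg
Rpl9: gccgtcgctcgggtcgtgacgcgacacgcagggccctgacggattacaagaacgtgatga
Rpl41: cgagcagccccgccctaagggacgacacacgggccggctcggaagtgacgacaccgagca
Among these 9 windows the longest run, 18 pyrimidines, was that of Rpl35. Among the 60 genes with a matched window Rpl7a and Rpl27a had longer ones, of 21 and 20. No such run was in the windows of Rpl10, Rpl9 and Rpl41, at these annotated starts.

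Libraries held 48940875 to 91976637 counted molecules (unique molecular identifiers, UMIs) over 1997 to 4093 spots, and the median spot held 12736 to 28433 UMIs. The slides share a fixed set of spot barcodes, so 1361 to 3083 barcodes occurred in both libraries of a pair, and they mark positions and not cells. Mitochondrially encoded genes took 11.9% of UMIs in WT and 6.0% to 8.32% in the other 5 libraries. Col4a5 had 5.52, 5.57, 3.39 and 6.54 scaled CPM in the early treated, late treated, 5m AS and 2m AS libraries, against 13.2 in the mixed library and 11.9 in WT. Early proximal tubule markers, the defining cells of kidney cortex, summed to 3055 to 8934 scaled CPM over the 6 libraries, with none of the 5 at 0.

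Ribosomal protein genes took 5.78% of all UMIs in the early treated, 4.75% in the late treated, 7.41% in the 5m AS, 7.06% in the 2m AS and 8.24% in the mixed library, against 5.19% in WT. The 95% exact binomial intervals were at most 0.0142 percentage points wide, and like the other intervals below they cover only counting error, so that variation from mouse to mouse is not in them. Untreated AS libraries of both ages and the mixed library thus lay above WT, the early treated library lay above it by less, and the late treated library lay below it. The median spot gave the same order, with 5.64%, 4.62%, 7.12%, 6.97% and 7.99% in those 5 libraries and 5.08% in WT. Without mitochondrially encoded genes in the total the shares were 6.15%, 5.18%, 8.04%, 7.61% and 8.87%, against 5.89% in WT, in the same order again. As each value is a sum over many cells, fewer cells of a type and less RNA per cell cannot be told apart.

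**Figure D1:**
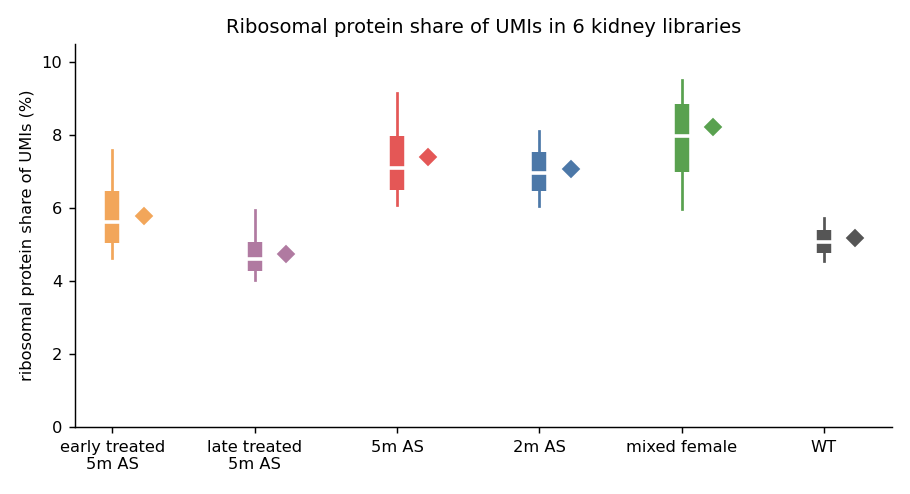
Share of UMIs in the 80 ribosomal protein genes (%, vertical axis) in the 6 libraries. Thick bars span the 25th to 75th and thin lines the 10th to 90th percentile of spots, white marks are spot medians, and diamonds beside them are whole libraries. The late treated library (4.75%) is the lowest and the mixed female library (8.24%) the highest.

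Levels of single genes below are scaled CPM, that is CPM over a library size adjusted by the TMM method, and a ratio sets 2 libraries side by side with its 95% counting interval. With 1 library in each group no difference has a replicate check and no test was run. A gene counts as apart at 1.5-fold. The count over members is set beside the share of all genes that were equally far apart, among those reaching 20 scaled CPM in either library. Comparisons that use the same library, such as those with WT or with 5m AS, are not independent of each other.

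The median gene of the 80 had 591 scaled CPM in the early treated, 512 in the late treated, 778 in the 5m AS, 1055 in the 2m AS and 1055 in the mixed library, against 722 in WT. The late treated library held the lowest level of the 6 for 74 of the 80 genes, and the 2m AS and mixed libraries held the highest for 39 and 32. With plain CPM the late treated library was lowest for 45 genes and WT for 30, so which library was lowest depended on the scaling for many of them. Counted without its listed near-identical copy, Rpl9 varied most, with 6.31 times between its highest and its lowest library.

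For 5m AS against WT, the median log2 ratio of the 80 genes was 0.10, with a range of -0.16 to 0.65. The median of all genes was -0.20, so the ribosomal protein genes lay 0.30 above it. Only Rpl35 was at least 1.5-fold higher, where 8.04% of all genes were, and none was as far lower, where 14.6% were. This comparison leans on the scaling. Plain CPM shifts every log2 ratio in it by 0.40, which gave a median of 0.50 and 21 genes higher, where 18.1% of all genes were. The median of all genes was then 0.22. Rpl35, a protein near the exit of the ribosome's peptide tunnel, had 286 scaled CPM in 5m AS, against 183 in WT, a ratio of 1.57 (1.53 to 1.60). Next came Rps28, at 787 in 5m AS against 529 in WT, and Rpl39, at 851 against 607, with ratios of 1.49 (1.47 to 1.51) and 1.40 (1.38 to 1.42). At the low end were Rpl9, Rpl7l1 and Rps2, with ratios of 0.894 (0.881 to 0.907), 0.913 (0.876 to 0.951) and 0.919 (0.908 to 0.930).

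In scaled CPM, the younger AS library stood further from WT. By share of UMIs it did not, with 7.06% in 2m AS and 7.41% in 5m AS against 5.19% in WT, and with plain CPM the median log2 ratios to WT were 0.52 in 2m AS and 0.50 in 5m AS. With scaled CPM, in 2m AS against WT the median log2 ratio was 0.62, 0.64 above the median of all genes, and 75 of the 80 were above 0. At least 1.5-fold higher were 48 genes, where 8.57% of all genes were, and no ribosomal protein gene was as far lower, where 7.27% were. Among spots of 10000 to 30000 UMIs alone, 31 were higher, where 5.34% of all genes were. Rpl10, a large subunit protein that joins in the last steps of assembly, had 711 scaled CPM in 2m AS, against 241 in WT, a ratio of 2.95 (2.90 to 3.01). Rpl35 had 406 in 2m AS against 183 in WT, and Rpl9 had 1329 against 605, with ratios of 2.22 (2.18 to 2.27) and 2.20 (2.17 to 2.22). Not every gene followed. Rpl31, Rpl38 and Rpl37, all of the large subunit, had ratios of 0.873 (0.861 to 0.885), 0.912 (0.903 to 0.921) and 0.926 (0.917 to 0.935), so the 80 did not move as a block.

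WT was not the only library with wild-type tissue, and the mixed female library gave another view. Against WT its median log2 ratio was 0.56, 0.65 above the median of all genes, with 35 genes at least 1.5-fold higher, where 7.34% of all genes were, and none as far lower, where 9.96% were. With each spot weighted equally 21 were higher, where 6.94% of all genes were. Rpl10, Rpl35 and Rpl9 again had high ratios, at 2.69 (2.64 to 2.74), 2.53 (2.48 to 2.59) and 2.45 (2.43 to 2.48). Rpl4 and Rpl7l1 were among the genes with the lowest ratios, at 0.871 (0.861 to 0.881) and 1.01 (0.972 to 1.05). With the mixed library in place of WT, the median log2 ratio of 2m AS was 0.02 with none of the 80 genes apart, where 8.39% of all genes were higher and 5.76% lower. That of 5m AS was then -0.44, which reverses its direction, with 24 genes lower, where 17.2% of all genes were. The median of all genes was -0.08 in that comparison. Whether AS libraries lay higher therefore depended on whether WT or the mixed library was the reference. The mixed library is not a second wild-type control, as it also holds heterozygous tissue. A region of spots led by Slc7a12 had 343 spots in it and 0 in each other library. Its carrier tissue and its female sex cannot be told apart from the change of reference. WT and 5m AS were counted with Space Ranger 1.2.1 and the other 4 libraries with 1.3.1, so the version cannot be told apart from the group in a comparison across versions. Within a version lay 5m AS against WT, with a median log2 ratio of 0.10, and early against late treated, with 0.23. The 0.02 of 2m AS against the mixed library was also within a version. All other comparisons here cross versions, among them both treated libraries against 5m AS. Within version 1.3.1 the median gene had 591 and 512 scaled CPM in early and late treated. It had 1055 in 2m AS and in the mixed library. What the version contributed was not tested.

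**Figure D2:**
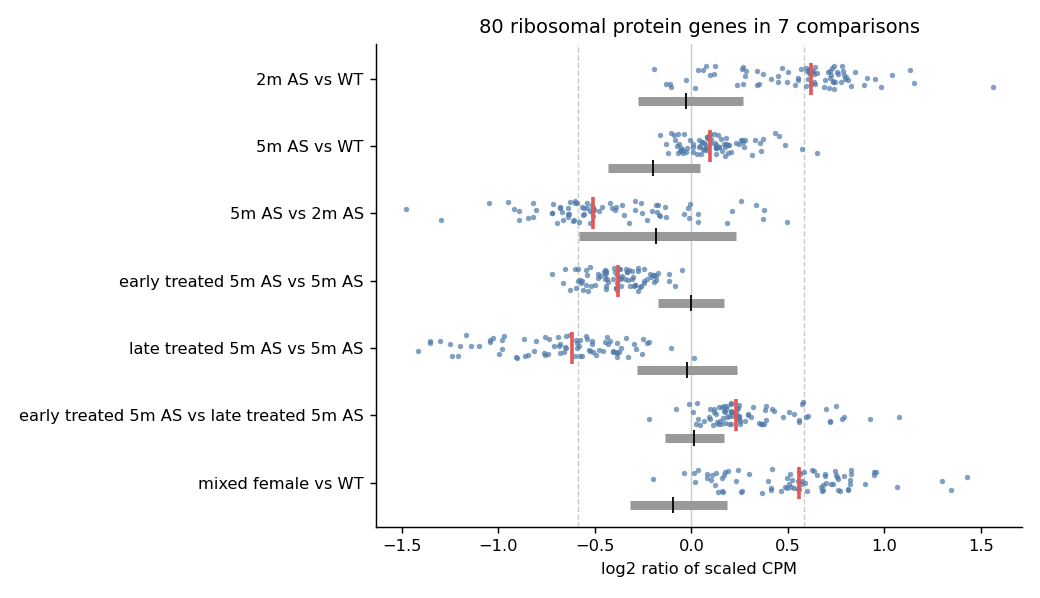
Log2 ratio of scaled CPM (horizontal axis) of 80 ribosomal protein genes in 7 comparisons, 1 row each. Blue points are genes, red bars their median, grey bars the 25th to 75th percentile of all genes with at least 20 scaled CPM, and black ticks the median of all genes; dashed lines mark 1.5-fold. All 80 genes lie below 0 in early treated 5m AS against 5m AS, and 79 do in late treated 5m AS against 5m AS.

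Between the untreated ages, 5m AS against 2m AS, the median log2 ratio was -0.51, or 0.33 below the median of all genes, and 71 of the 80 were below 0. At least 1.5-fold lower were 29 genes, where 24.9% of all genes were, and none was as far higher, where 11.8% were. With plain CPM, which shifts every log2 ratio here by 0.50, the median was -0.01, with 7 genes higher, where 35.9% of all genes were, and 2 lower, where 5.69% were, so no direction for the whole family holds under both scalings. Without mitochondrially encoded genes 17 were lower, where 19.4% of all genes were. The spread among the genes does not depend on the scaling. Rpl10 had 255 scaled CPM in 5m AS, against 711 in 2m AS, a ratio of 0.359 (0.352 to 0.365). Rpl9 and Rpl17 had ratios of 0.407 (0.402 to 0.412) and 0.484 (0.478 to 0.490). At the other end Rpl38, known in mice for its part in translating Hox mRNAs, had 1425 in 5m AS, against 1011 in 2m AS, a ratio of 1.41 (1.40 to 1.42). Rpl31 and Rpl37 followed with 1.3 (1.28 to 1.31) and 1.29 (1.28 to 1.31). Large subunit genes thus stood at both ends of the comparison.

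Part of that spread went with the length of the coding sequence. The 10 genes with fewer than 300 coding bases, Rpl41, Rpl39, Rps29, Rps28, Rpl38, Rps21, Rps27, Rps27l, Rpl37a and Rpl37, had a median log2 ratio of 0.20 in 5m AS against 2m AS, and the other 70 had -0.53. In 5m AS against WT the medians were 0.31 and 0.08, and in 2m AS against WT they were 0.25 and 0.63. The mixed library against WT had a split like that of 2m AS, with 0.18 and 0.58. Against 5m AS the medians lay closer, at -0.43 and -0.37 in early treated and -0.64 and -0.60 in late treated. Across the 80 genes, Spearman's rho between coding length and log2 ratio was -0.37 in 5m AS against 2m AS, -0.39 in 5m AS against WT and 0.29 in 2m AS against WT. It was 0.39 and 0.31 in early and late treated 5m AS against 5m AS, and 0.25 in the mixed library against WT. The genes share libraries and depth and are not replicates, so these values describe the pattern. Rpl41, the shortest at 78 coding bases, had 2024 scaled CPM in 5m AS, against 1974 in 2m AS. The longest, Rpl4 at 1260 bases, had 884 in 5m AS, against 862 in 2m AS. Rps27l, also short, went the other way, with a ratio of 0.630 (0.622 to 0.638).

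**Figure D3:**
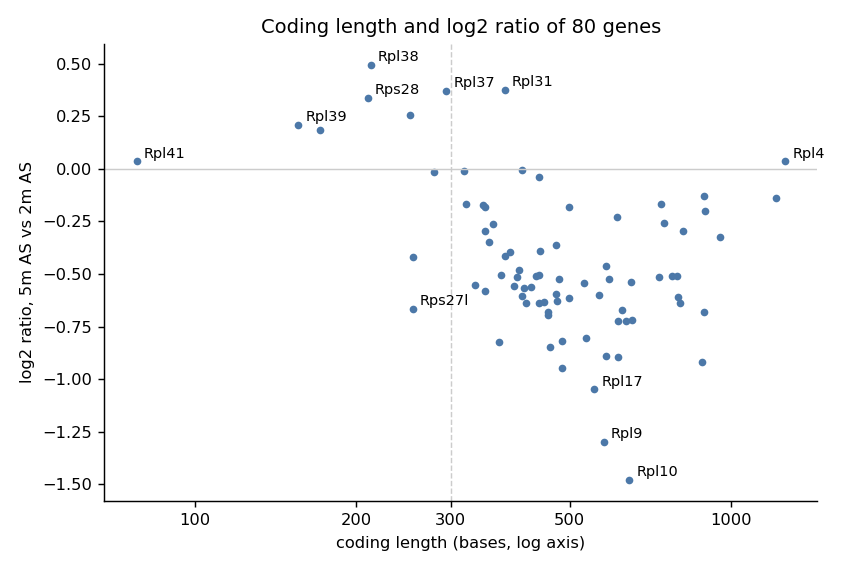
Log2 ratio of 5m AS against 2m AS (vertical axis) and coding length in bases (horizontal log axis) of the 80 ribosomal protein genes, each a point, with the dashed line at 300 bases. Genes left of the line have a median of 0.20 and those right of it -0.53; Rpl10, Rpl9 and Rpl17 are the lowest points.

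Both hEV-treated libraries lay below untreated 5m AS. In early treated 5m AS against 5m AS the median log2 ratio was -0.38, against 0.00 for all genes, and all 80 genes were below 0. At least 1.5-fold lower were 7 genes, where 4.25% of all genes were, and none was as far higher, where 3.9% were. With plain CPM 3 were lower, where 3.46% of all genes were, so that count stood near the background. Rpl28 had 703 scaled CPM in early treated 5m AS, against 1160 in 5m AS, a ratio of 0.606 (0.598 to 0.613). Rpl41 and Rpl37 had ratios of 0.630 (0.625 to 0.636) and 0.636 (0.629 to 0.642). Closest to 1 were Rpl22l1, Rpl7l1 and Rpl10, at 0.965 (0.938 to 0.994), 0.944 (0.904 to 0.987) and 0.922 (0.901 to 0.943), which include both of the least abundant genes kept.

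In late treated 5m AS against 5m AS the median log2 ratio was -0.62, against -0.02 for all genes, and 79 of the 80 genes were below 0. At least 1.5-fold lower were 44 genes, where 10.2% of all genes were, and none was as far higher, where 7.81% were. Rpl41 had 760 scaled CPM in late treated 5m AS, against 2024 in 5m AS, a ratio of 0.375 (0.372 to 0.379). Rpl36a had 139 against 355, and Rpl35 had 112 against 286, with ratios of 0.391 (0.381 to 0.401) and 0.392 (0.381 to 0.403). The 3 genes that differed least were of the small subunit. Rps25, at 541 in late treated 5m AS against 535 in 5m AS, had a ratio of 1.01 (0.996 to 1.03), and Rps23, a protein of the decoding centre, had 0.929 (0.917 to 0.942). Rps29 had 0.861 (0.851 to 0.870). The medians of the small and the large subunit were nevertheless -0.62 each.

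Setting the treated libraries side by side, early treated against late treated 5m AS had a median log2 ratio of 0.23, 0.22 above the median of all genes, and 77 of the 80 genes were above 0. At least 1.5-fold higher were 10 genes, where 3.35% of all genes were, and none was as far lower, where 1.85% were. Rpl35 had 236 scaled CPM in early treated 5m AS, against 112 in late treated 5m AS, a ratio of 2.10 (2.05 to 2.16). Rpl9 and Rpl10 had ratios of 1.90 (1.86 to 1.94) and 1.73 (1.68 to 1.77). Rps25, Rps29 and Rps23 were at the low end with 0.860 (0.847 to 0.874), 0.945 (0.934 to 0.956) and 0.991 (0.978 to 1.0). The same 3 large subunit genes thus spanned a wide range in most libraries, as the plot of 6 genes shows.

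**Figure D4:**
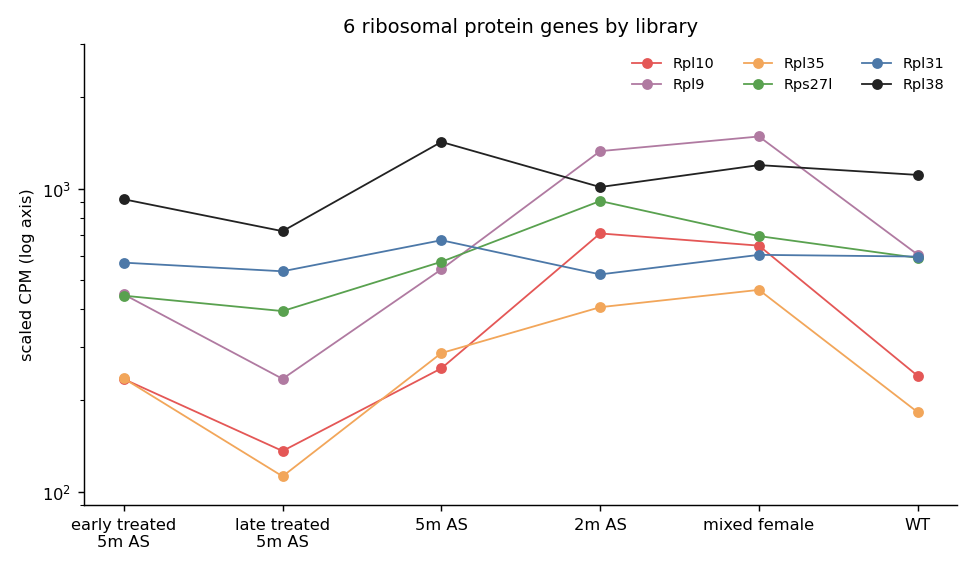
Scaled CPM (vertical log axis) of 6 ribosomal protein genes in the 6 libraries, with lines joining the values of a gene. Rpl10, Rpl9 and Rpl35 are highest in 2m AS and the mixed female library and lowest in the late treated library (136, 235 and 112), while Rpl31 stays between 521 and 675 throughout.

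Markers of several cell types moved with the treated comparisons. Against 5m AS, 4.25% of all genes were at least 1.5-fold lower and 3.9% higher in early treated. In late treated, 10.2% were lower and 7.81% higher. Macrophage markers were among those that moved. All 8 of them were at least 1.5-fold lower in both treated libraries than in 5m AS, and none was at 0. They summed to 1429 in early treated, 1133 in late treated and 2747 scaled CPM in 5m AS, against 472 in WT. The 6 injured tubule markers summed to 4526, 2318 and 6643, against 677 in WT, with 2 of 6 at least 1.5-fold lower in early treated and 6 of 6 in late treated 5m AS than in 5m AS. All 8 and all 6 were higher in 5m AS against WT, where 8.04% of all genes were. Early proximal tubule markers moved the other way, with 4 of 5 at least 1.5-fold higher in early treated and 5 of 5 in late treated than in 5m AS. They summed to 5080, 6456 and 3055 scaled CPM in early treated, late treated and 5m AS, against 8934 in WT. All 3 distal convoluted tubule markers were higher in both treated libraries, with sums of 1021, 1182 and 403, against 1272 in WT. Fibroblast markers were lower for 4 of 6 in both, with sums of 656, 494 and 1058, against 169 in WT. Late proximal tubule markers were lower for 4 of 5 in early treated and 3 of 5 in late treated, and podocyte markers higher for 3 of 5 and 4 of 5. Erythroid markers split the treated libraries, with 4 of 4 lower in early treated and 3 of 4 higher in late treated, and sums of 240, 1372 and 855, against 1699 in WT. No marker of these lists was at 0, and their part in the ribosomal protein ratios was not tested. Ribosomal protein shares within regions of spots are given below, and the mix of cells inside a region can itself differ between libraries.

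The stalk of the large subunit, formed by Rplp0, Rplp1 and Rplp2, recruits the elongation factors. Rplp1 had 1234 scaled CPM in early treated, 1076 in late treated, 1792 in 5m AS, 2017 in 2m AS and 2109 in the mixed library, against 1582 in WT. Its partner Rplp2 had 431, 262, 618, 700 and 721 in those 5 libraries, against 541 in WT. Rplp0, which anchors both, had 641, 622, 801, 1002 and 965, against 733 in WT. The 3 genes shared their order of libraries for the most part but not their size of difference. In late treated 5m AS against 5m AS the ratio was 0.424 (0.416 to 0.432) for Rplp2, 0.601 (0.595 to 0.606) for Rplp1 and 0.777 (0.767 to 0.787) for Rplp0. These intervals cover only counting error and not variation from mouse to mouse. Rpsa, a small subunit protein also known as the laminin receptor precursor, had 797, 672, 1004, 1099 and 1247, against 1041 in WT.

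By mean CPM over the libraries the most abundant genes were Rpl41, Rplp1, Rpl13, Rpl21 and Rpl23. Rpl13 had 1013 scaled CPM in early treated, 826 in late treated, 1381 in 5m AS, 2278 in 2m AS and 2357 in the mixed library, against 1344 in WT. Rpl21 had 769, 467, 1152, 2035 and 2475, against 1182 in WT, a spread of 5.30 times. Rpl23 had 960, 817, 1232, 1817 and 1937, against 1092 in WT. All 3 were highest in the mixed library and lowest in the late treated one. Rpl41 differed in order, with 1276, 760, 2024, 1974 and 2004, against 1893 in WT, so that only the treated libraries stood apart.

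A few members are paralogs of other members, and some of these are thought to replace their partner in some ribosomes. Rps27l, a target of the p53 pathway, had 443 scaled CPM in early treated, 394 in late treated, 573 in 5m AS, 910 in 2m AS and 697 in the mixed library, against 590 in WT. Rps27 had 363, 291, 457, 611 and 578, against 357 in WT. The partners differed in 5m AS against WT, with 1.28 (1.26 to 1.3) for Rps27 and 0.971 (0.957 to 0.985) for Rps27l. Rpl22l1 had 154, 127, 160, 282 and 192, against 172 in WT, and Rpl22, an RNA-binding protein of the large subunit, had 517, 346, 706, 929 and 992, against 659 in WT. In late treated 5m AS against 5m AS, Rpl22 had a ratio of 0.491 (0.483 to 0.499) and Rpl22l1 of 0.796 (0.773 to 0.820). Rpl7l1 stayed between 59.1 and 78.7 in all 6 libraries, where Rpl7 spanned 497 to 871. Rpl3l, the striated muscle form of Rpl3, reached at most 6.58 scaled CPM, and Rpl3 spanned 391 to 582. Rpl39l and Rpl10l, known as testis forms, had at most 0.146 and 0.117.

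Many of these genes have near-identical copies elsewhere in the genome, and how reads were divided between a gene and its copies was not given in the sources used here. By coding sequence, 28 of the 80 shared a run of 60 bases with at least 10 other annotated genes, up to 101 for Rpl7a and 76 for Rpl21. Levels of such genes are therefore uncertain. The medians of the 28 and the other 52 were 0.68 and 0.60 in 2m AS against WT and -0.54 and -0.65 in late treated 5m AS against 5m AS. Some copies are listed as genes of their own. The 4 examined took a larger share of their pair in late treated than in untreated 5m AS. Rpl9-ps6 had 52.9 scaled CPM in early treated, 81.1 in late treated, 51.0 in 5m AS, 48.3 in 2m AS and 53.4 in the mixed library, against 55.4 in WT. It thereby took 25.6% of the pair with Rpl9 in late treated 5m AS, against 8.61% in 5m AS, 3.51% in 2m AS and 8.39% in WT. Rpl10-ps3 took 31.2% of its pair in late treated, 13.9% in 5m AS and 4.31% in 2m AS, against 14.5% in WT. Rps27rt took 23.8% of its pair with Rps27 in late treated, 11.8% in 5m AS and 7.15% in 2m AS, against 14.6% in WT. Rpl36a-ps1 took 7.33% of its pair with Rpl36a in late treated, 3.20% in 5m AS and 2.73% in 2m AS, against 3.82% in WT. With gene and copy added, Rpl10 still had 198 scaled CPM in late treated, 296 in 5m AS and 743 in 2m AS, against 282 in WT.

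Genes with and without these sequence features at their start had similar medians. In late treated 5m AS against 5m AS the median log2 ratio was -0.65 for the 31 genes with a pyrimidine run and -0.59 for the 29 without. In 2m AS against WT the medians were 0.65 and 0.60. For the 24 genes with CCGGAAG and the 36 without, they were -0.64 and -0.60 in late treated 5m AS against 5m AS, and 0.61 and 0.63 in 2m AS against WT. The ranges overlapped widely. In 5m AS against 2m AS the log2 ratios ran from -0.89 to 0.49 with a pyrimidine run and from -1.48 to 0.37 without. Genes with a run also differed among themselves there. Rpl38 and Rpl35, both shown above with a run, had ratios of 1.41 (1.40 to 1.42) and 0.706 (0.692 to 0.719).

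To see where in the section the difference lay, spots were clustered without ribosomal protein and mitochondrially encoded genes into 13 regions. Since spots hold several cells, these regions are not cell types. Among regions with at least 20 spots in both libraries, the ribosomal protein share of UMIs was lower in 11 of 11 in early treated 5m AS than in 5m AS, with ratios of 0.709 to 0.859. It was lower in 11 of 11 in late treated 5m AS, with ratios of 0.605 to 0.719. It was higher in early than in late treated 5m AS in 11 of 11, at 1.16 to 1.27. Against WT it was higher in 9 of 9 regions in 5m AS, at 1.33 to 1.74, in 9 of 9 in 2m AS, at 1.35 to 1.49, and in 8 of 8 in the mixed library, at 1.37 to 1.83. In 5m AS against 2m AS it was higher in 5 regions and lower in 6, at 0.935 to 1.16. The differences from WT, and those of the treated libraries from 5m AS, were thus present in regions led by tubule, glomerular and arterial genes alike. Against the mixed library, 2m AS was lower in every region with at least 20 spots in both. There 5m AS was lower in most, as in that led by Slco1a1, with 7.30% against 9.16%. It was higher in those led by Havcr1, with 9.43% against 9.04%, and Ikbkb, with 6.44% against 6.26%. These shares carry no TMM scaling.

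The region led by Havcr1, Ccl2, C3 and Vcam1, genes of injured tubule and inflammation, had the highest share of the regions plotted in all AS libraries but 2m AS, where the region led by Acta2 was higher. Its share was 7.57% in early treated (591 spots), 6.41% in late treated (341), 9.43% in 5m AS (339), 8.09% in 2m AS (121) and 9.04% in the mixed library (96), against 5.42% in WT (44). Against all other spots of the same library that was 1.37, 1.40, 1.34, 1.15 and 1.10 times, against 1.04 times in WT. The median log2 ratio of the 80 genes between this region and the others was 0.46, 0.49, 0.43, 0.20 and 0.12, against 0.06 in WT. The same over all genes was 0.19, 0.18, 0.21, 0.06 and 0.07, against 0.03 in WT. At least 1.5-fold higher were 7 of the 80 in early treated, where 15.5% of all genes were, 13 in late treated, where 15.3% were, and 2 in 5m AS, where 15.5% were. None was in 2m AS, the mixed library or WT, where 6.03%, 5.24% and 4.6% of all genes were. Many small differences in one direction thus made up the higher share.

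Single genes differed within that region. Rpl12, which sits at the base of the stalk, had 715 CPM there in early treated, 651 in late treated and 761 in 5m AS, against 419, 396 and 494 in the other regions of the same libraries, ratios of 1.70, 1.64 and 1.54. It was the highest of the 80 in each of these libraries and in 2m AS, where its ratio was 1.37. Rps27l was the lowest in these 3 libraries, at 1.05, 0.977 and 0.960. Its levels there were 543, 452 and 626 CPM, against 519, 462 and 653 CPM in the other regions. Median depth in this region was 8913 UMIs per spot in early treated, 13310 in late treated and 24733 in 5m AS.

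**Figure D5:**
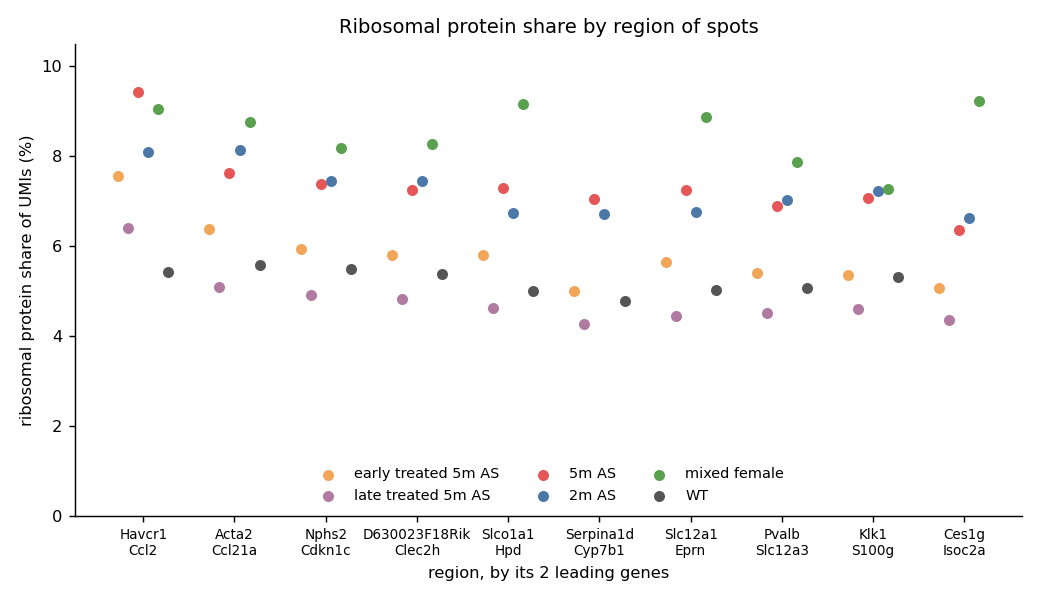
Ribosomal protein share of UMIs (%, vertical axis) in 10 regions of spots, named by 2 leading genes, with 1 point for each library that has at least 20 spots there. Points of the treated libraries lie below those of 5m AS in each region, and the region led by Havcr1 reaches 7.57% in early treated, 6.41% in late treated and 9.43% in untreated 5m AS.

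Other genes of translation were set beside the 80. Fau, which encodes a small subunit protein fused to a ubiquitin-like protein and falls outside the symbol rule, had 1018 scaled CPM in early treated, 691 in late treated, 1466 in 5m AS, 2103 in 2m AS and 2375 in the mixed library, against 1534 in WT. Like Rpl13, it was highest in the mixed library and lowest in the late treated one. The 78 mitochondrial ribosomal protein genes, which serve the separate ribosome inside mitochondria, differed from this. Only those that reached 20 scaled CPM in either library of a comparison were counted. In early treated 5m AS against 5m AS their median log2 ratio was -0.03 with none apart. There 4.25% of all genes were lower and 3.9% higher. In late treated 5m AS their median was -0.17, with 5 lower, where 10.2% of all genes were. None was higher, where 7.81% of all genes were. The median was -0.77 in 5m AS against 2m AS, with 55 lower, where 24.9% of all genes were. Plain CPM raises every log2 ratio by 0.50 there and by 0.40 in 5m AS against WT. In 5m AS against WT the median was -0.36, with 3 lower, where 14.6% of all genes were. In 2m AS against WT it was 0.42, with 20 higher, where 8.57% of all genes were. No test of the difference between the families was run.

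Initiation factors, 34 genes that bring mRNA to the ribosome, had medians of -0.02 and -0.14 against 5m AS in early and late treated. In those libraries 0 and 3 of these genes were lower, where 4.25% and 10.2% of all genes were. The 3 were Eif6, which keeps the subunits apart, at 73.7 scaled CPM in late treated against 133 in 5m AS, Eif1 at 397 against 635, and Eif4a1 at 220 against 340. The same shares of all genes apply to the treated comparisons of the lists that follow. Elongation factors had medians of -0.04 and -0.14, with Eef1d the 1 gene lower in late treated, at 106 against 159. Of the RNA polymerase I list, which includes the factor Ubtf, 0 and 2 of 10 measured genes were lower, with medians of -0.17 and -0.38. The 2 were Polr2l, at 38.3 in late treated against 61.9 in 5m AS, and Polr2k, at 73.7 against 112. Both encode subunits that other RNA polymerases share. Ribosome biogenesis genes, which process and assemble ribosomal RNA, had medians of -0.12 and -0.33, with 1 and 2 of 22 measured lower. One of these was Nhp2, of the particles that modify ribosomal RNA, at 75 in early treated and 66.2 in late treated, against 124 in 5m AS. In 5m AS against 2m AS the biogenesis genes had a median of 0.39, while the 80 ribosomal protein genes had -0.51. Of the biogenesis genes 4 were higher, where 11.8% of all genes were, and 2 lower, where 24.9% were. Nop58, a core protein of the same kind of particle, had 21.5 in 5m AS, against 10.4 in 2m AS.

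From the mTOR axis and the integrated stress response, Ddit4, an inhibitor of mTOR complex 1, had 26.1 scaled CPM in early treated, 21.9 in late treated, 53.3 in 5m AS and 14.1 in 2m AS, against 24.5 in WT. Atf4, the transcription factor of the stress response, had 96.1 in late treated against 168 in 5m AS, and 168 in 5m AS against 96.1 in 2m AS. Mtor itself had 89.8 in 5m AS, 170 in 2m AS and 95.1 in the mixed library, against 176 in WT. Eif4ebp1 had 18.1 in late treated, 38.5 in 5m AS and 38.0 in the mixed library, against 21.9 in WT. In late treated 5m AS against 5m AS, 3 of 14 measured genes of this list were lower and none higher, and in early treated 1 of 13 was lower, with medians of -0.03 and -0.12. Of all genes, 10.2% were lower and 7.81% higher in late treated than in 5m AS, and 4.25% were lower in early treated. Of 13 listed genes measured in 5m AS against WT, 3 were higher and 1 was lower, with a median of -0.29. There 8.04% of all genes were higher and 14.6% lower.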

How the data were processed

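Each library was deposited as raw whole-number counts of UMIs for each gene and spot. Space Ranger was run as version 1.2.1 on WT and 5m AS and as version 1.3.1 on the other libraries, per the file headers, and mm10 is the build in the submitters' processing notes. The sources used here give no annotation version, strand handling or spot filter. Counts were summed over all spots of a library and scaled by TMM factors of 0.801 to 1.18 (edgeR 4.0.16, R 4.3.3). Ratios carry exact 95% intervals for Poisson counts, and the procedure was tested on simulated data. Spots under 500 UMIs were left out and the rest clustered with scanpy 1.11.5 and leidenalg 0.10.2, on 2000 variable genes and 30 principal components with 15 neighbours at resolution 0.8. Genes were scaled within each library, a choice made after unscaled clusters separated the libraries. Coordinates and coding lengths came from GENCODE on mm10 and start windows from RefSeq. Spot positions were not used, and doublets do not apply to spots.

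The members, the lists and the rule for named genes were chosen with earlier results of these data known. Named genes were the 5 most abundant, the 3 highest and 3 lowest in each comparison, paralogs and their partners, the stalk genes and Rpsa, genes at the threshold and up to 4 of each translation list, not all of which are given; Rpl12 and the named copies were chosen after their values were seen. Alternatives were plain CPM, median-of-ratios size factors as in DESeq2 1.42.0, totals without mitochondrially encoded or ribosomal protein genes, equal weight of spots, 2 ranges of spot depth, ratios within regions, other folds and the mixed library in place of WT.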

Additional observations from a re-analysis of the deposited data

How the results depend on the processing

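No paired analysis was possible because each group had 1 library. Without replicates a value counts as unmoved only within its counting interval, so small shifts are listed too. Comparisons below run in the order early treated against 5m AS, late treated against 5m AS, early against late treated, 5m AS against 2m AS, 5m AS against WT, 2m AS against WT and the mixed library against WT. The median log2 ratio of the 80 genes was -0.32, -0.57, 0.24, -0.013, 0.50, 0.52 and 0.68 with plain CPM. With each spot weighted equally it was -0.37, -0.59, 0.18, -0.47, 0.070, 0.53 and 0.37. In spots of 10000 to 30000 UMIs it was -0.32, -0.58, 0.25, -0.47, 0.040, 0.49 and 0.43, and within regions -0.37, -0.59, 0.21, -0.55, 0.089, 0.62 and 0.52. Without mitochondrially encoded genes it was -0.40, -0.64, 0.24, -0.42, 0.18 and 0.61 in the first 6 comparisons. Median-of-ratios size factors gave -0.39 for early treated and 0.22, -0.53, 0.14, 0.68 and 0.60 from early against late treated onwards. Totals without the ribosomal protein genes gave -0.38 and -0.62 for the treated libraries, -0.51 for 5m AS against 2m AS, and 0.62 and 0.56 for 2m AS and the mixed library against WT.

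With the mixed library in place of WT, the median was -0.44 for 5m AS (reversed, with 0 genes higher and 24 lower) and 0.020 for 2m AS, with 0 higher; Rpl35 was then at -0.69 in 5m AS and -0.19 in 2m AS. Rpl9 was at -0.16 in 2m AS, which reverses these too. Of 174 ratios past 1.5-fold over the 80 genes, 21 of 1441 alternative values changed sign, all under this setting. The setting applies only to 5m AS and 2m AS against WT. Its other 28 values fell below 1.5-fold. None of the ratios past 1.5-fold in those comparisons thus kept both direction and size. Plain CPM left 3 genes lower in early treated, gave 7 higher and 2 lower in 5m AS against 2m AS, and 21 higher in 5m AS against WT. In spots of 10000 to 30000 UMIs 4 were lower in early treated, where 4.63% of all genes were, 0 higher in 5m AS, where 8.01% were, and 31 higher in 2m AS against WT. Without mitochondrially encoded genes 17 were lower in 5m AS against 2m AS and 2 higher in 5m AS against WT, where 9.3% of all genes were, also 2 with median-of-ratios factors. Equal weight of spots left 21 higher in the mixed library.

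The share of all genes that passed stands in brackets here. At a log2 ratio of 0.32 in place of 0.58, 51 (12.2%) were lower in early and 72 (22.4%) in late treated, 26 (10.9%) higher in early against late treated, 54 (40.9%) lower and 4 (20.6%) higher in 5m AS against 2m AS, 9 (12.6%) higher in 5m AS against WT and 57 (16.7%) in the mixed library. At 2-fold, 0 (1.53%) and 14 (3.63%) were lower in early and late treated, 1 (0.942%) was higher in early against late treated, 3 (8.13%) were lower in 5m AS against 2m AS, and 0 (4.86%) were higher in 5m AS, 4 (1.29%) in 2m AS and 4 (2.37%) in the mixed library against WT. The share of UMIs in spots of 10000 to 30000 UMIs was 5.69%, 4.85%, 7.44%, 7.23% and 8.18% in early treated, late treated, 5m AS, 2m AS and the mixed library, against 5.11% in WT. Without mitochondrially encoded genes it was 6.15%, 5.18%, 8.04%, 7.61% and 8.87%, against 5.89%, and as a mean over spots 5.89%, 4.84%, 7.38%, 7.03% and 7.84%, against 5.11%. The cause of these shifts was not tested. With 1 library a group, the spread between animals was not measured.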
